A study of Schizosaccharomyces pombe with 8 samples.

Results

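The stress genes atf1 and gpd1 of the fission yeast Schizosaccharomyces pombe were described in ligation libraries made from immunoprecipitates of Rec27-GFP, a GFP-tagged protein of the linear elements, which form the axis of fission yeast meiotic chromosomes. Members were chosen by position on chromosome II. The atf1 region, 1543134 to 1549062, is the run of ends around atf1 that the authors class as hot. The gpd1 region, 4030834 to 4037342, joins the hot run beside gpd1 to the gpd1 gene. They are 2 of 451 regions, called hot regions below, of which all but the gpd1 region are hot runs alone. In the gpd1 region the hot run ends at 4035748. The remaining 1594 bp, up to the end of gpd1, are of the cold class. A deposited line is 1 pair of ligated DNA ends, and pairs with both ends within 500 bp of each other were counted once, as 1 ligation event. The 2 regions took part in 113 of 35511 events in the interacting library, from 290 of 101984 pairs. In the de-crosslinked library they took part in 177 of 56018 events, from 372 of 123434 pairs.

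In the interacting library, the Rec27-GFP immunoprecipitate was ligated on its beads while still crosslinked. In the de-crosslinked library, crosslinks were removed and protein digested before ligation, so that it is the control for joining without crosslinks. Both came from pat1-114 rec12D cells, in which a temperature-sensitive pat1 allele lets meiosis be started by heat and the gene for the enzyme that makes meiotic DNA breaks is deleted. Starvation for nitrogen lasted about 18 h, nitrogen and a shift to 34 °C started meiosis, and the harvest followed at 3.5 h. Formaldehyde at 1% was given to 500 mL of culture, chromatin was sheared to about 1000 bp, and the DNA was amplified with a Sequenase kit before fragmentation to about 300 bp. There is 1 library per group, so each test below compares 2 libraries, not conditions, and no difference has a replicate check. Intervals are exact 95% intervals and cover counting error only. None of the 8 samples is labelled as an input or an untagged strain, and the other 6 were not analysed here.

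Counting the ends of every pair, the median 1 kb bin of the genome held 12 ends in the interacting library, against 15 in the de-crosslinked library. Densities per kb given below count event ends instead, which are fewer. As a check of the labels, rec12, which is deleted, had 1 pair end in either library, while 36 interacting and 34 de-crosslinked pair ends lay in rec8, a gene of meiotic cohesin. Over all events whose ends lay at least 5 kb apart or on different chromosomes, the partner lay within 200 kb in 12.5% of the interacting and 3.24% of the de-crosslinked events.

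Atf1 is a transcription factor of the bZIP family. It is activated by the stress kinase Sty1 and, as a dimer with Pcr1, binds cAMP response elements (CRE) in the promoters of stress genes and of genes for sexual differentiation. The same dimer binds the M26 site, at which it creates a hotspot of meiotic recombination. Gpd1 is the glycerol-3-phosphate dehydrogenase that makes the glycerol with which cells withstand osmotic stress, and gpd1 is a known target of the Sty1 and Atf1 pathway.

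The 250 bases before each gene are shown because they hold matches to the sites that Atf1 and Pcr1 are known to bind. Coordinates are those of the deposited tables, and sequence and genes are from the RefSeq assembly ASM294v3. The strand is plus, which is the coding strand of both genes, and capitals mark each match to TGACGT or its reverse complement ACGTCA. The first lies at II:1545967-1546216 and the second at II:4035316-4035565.
atf1 upstream: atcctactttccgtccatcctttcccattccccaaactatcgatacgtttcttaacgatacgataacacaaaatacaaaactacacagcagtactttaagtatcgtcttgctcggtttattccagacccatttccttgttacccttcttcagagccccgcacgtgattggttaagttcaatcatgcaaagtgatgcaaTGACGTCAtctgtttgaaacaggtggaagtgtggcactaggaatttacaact
gpd1 upstream: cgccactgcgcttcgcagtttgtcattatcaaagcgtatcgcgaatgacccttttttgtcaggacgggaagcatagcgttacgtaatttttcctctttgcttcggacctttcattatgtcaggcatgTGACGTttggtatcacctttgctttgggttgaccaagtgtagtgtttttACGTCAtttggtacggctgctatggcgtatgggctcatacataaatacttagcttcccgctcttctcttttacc

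The atf1 gene runs from 1546217 to 1549862 with its coding part from 1547661 to 1549361, and gpd1 from 4035566 to 4037342 with its coding part from 4035814 to 4036971. Upstream of atf1 the match is the full palindrome TGACGTCA, 52 bp before the gene's annotated start, and 0.274% of the 250 bp stretches before all 5113 protein-coding genes hold it. Its flanks make it at the same time a match to the M26 heptamer ATGACGT on each strand, 53 and 50 bp before the start. Another heptamer lies 1392 bp inside atf1, in the 5′ untranslated part of its second exon. Of 2118 genome windows as long as the atf1 region, 12.1% hold the heptamer at least once, and 0.0% hold it 3 times or more. These windows lie edge to edge from the start of each chromosome, so an edge can split a group of matches. The atf1 region was instead placed on its locus, so the shares do not measure how rare its count is. The 3 matches of the atf1 region count the palindrome once on each strand. TGACGT also has 3 matches in the region, and 8.83% of the windows hold at least as many. The gpd1 region holds 1 heptamer, on the minus strand 74 bp before gpd1, and no TGACGTCA. The heptamer is present upstream of 1.47% of all protein-coding genes and TGACGT upstream of 5.52%.

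The sites differed in how many ends lay beside them. Within 250 bp of the palindrome upstream of atf1 there were 3 event ends in the interacting library, against 16 in the de-crosslinked library. At the heptamer inside atf1 there were 9 interacting and 5 de-crosslinked event ends. The site upstream of gpd1 had 2 event ends in the interacting library, against 4 in the de-crosslinked library. These counts were not scaled to the libraries, which held 71022 interacting and 112036 de-crosslinked event ends in all. They are descriptions of single sites and were not tested. A match of letters does not show that a factor is bound.

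Both regions carried more ends than the genome as a whole, and neither was among the densest hot regions. The atf1 region, of 5929 bp, held 54 event ends in the interacting library, or 9.11 per kb (6.84 to 11.9), and 103 in the de-crosslinked library, or 17.4 per kb (14.2 to 21.1). That is 1.61 times the genome mean of the interacting library and 1.95 times that of the de-crosslinked library, and the region ranked 118 of 451 in the interacting and 90 of 451 in the de-crosslinked library. The gpd1 region, of 6509 bp, held 60 event ends in the interacting library, or 9.22 per kb (7.03 to 11.9), and 76 in the de-crosslinked library, or 11.7 per kb (9.20 to 14.6). It stood at 1.63 times the interacting and 1.31 times the de-crosslinked genome mean, and ranked 117 and 170 in those libraries. These values count its cold part and the joins between TG runs described below. The median region had 6.45 event ends per kb in the interacting library, against 9.79 in the de-crosslinked library. Their excess over the genome is not a finding, since the authors' rule for the hot class, which is not given in the sources used here, may rest on the same ends.

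The share of all event ends that fell in each region did not differ detectably between the libraries. In the atf1 region it was 0.827 times as large in the interacting as in the de-crosslinked library, and in the gpd1 region 1.25 times. The adjusted p-values were 0.738 for atf1 and 0.651 for gpd1 (two-sided Fisher's exact test, Benjamini-Hochberg adjustment over 451 regions), in a comparison that called 5.99% of regions. Over the genes with 500 bp on each side, atf1 had 39 event ends in the interacting library, against 80 in the de-crosslinked library, and gpd1 had 24 interacting and 35 de-crosslinked event ends. These gave ratios of 0.769 for atf1 and 1.08 for gpd1 and adjusted p-values of 0.957 and 1.0 over the genes tested, of which 0.0982% were called. The gpd1 ratio was 0.973 with every pair counted and 0.816 without the joins between TG runs.

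**Figure D1:**
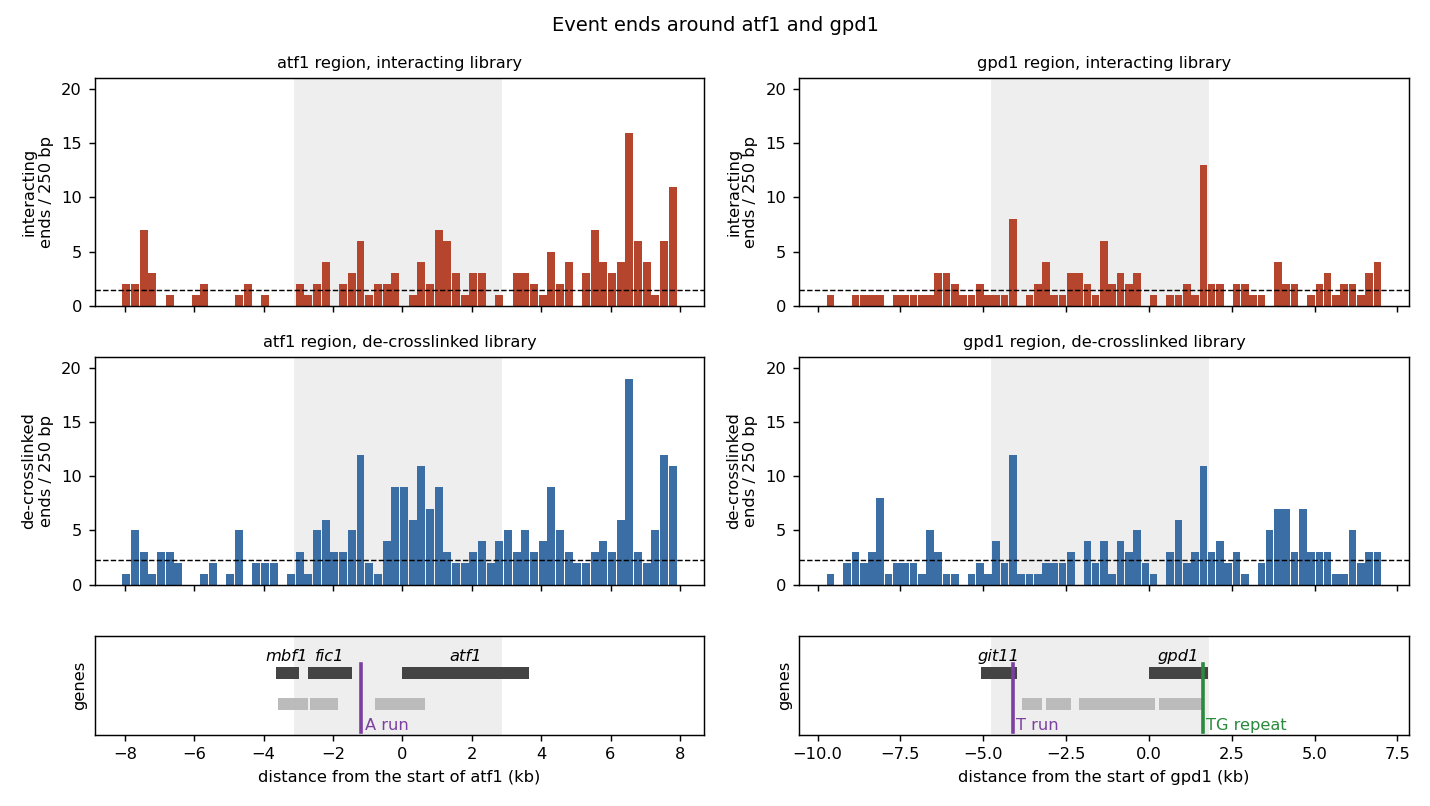
Event ends per 250 bp in the interacting (upper, red) and de-crosslinked (middle, blue) libraries against distance from the start of atf1 (left) or gpd1 (right) in kb; grey shading is the region, the dashed line the genome mean, dark bars are protein-coding and light bars non-coding genes. In the gpd1 region the tallest bars stand at a T run and a TG run, marked in the lowest panel; in the atf1 region the tallest de-crosslinked bar stands at an A run, and the tall bars at the right edge belong to the region of isp4.

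Within the atf1 region, ends were denser in the intron of atf1 than in its coding part, with no test made. Ends were also denser in the gap upstream of atf1 than in the coding part, counted with a run of A in the gap. In the interacting library they were densest in the 5′ untranslated part of the second exon. The gap between fic1, which encodes a protein of the cytokinetic ring, and atf1 had 16 event ends in the interacting library, against 34 in the de-crosslinked library, or 11.1 per kb (6.35 to 18.0) interacting and 23.6 per kb (16.3 to 32.97) de-crosslinked. Of these, 6 interacting and 11 de-crosslinked event ends lay within 50 bp of a run of 19 A in the gap. The higher density of the gap includes this run, and the gap is not shown to be denser than the coding part without it. The gap is crossed by the non-coding RNA genes SPNCRNA.1441 and SPNCRNA.5237. The atf1 intron, which splits the 5′ untranslated region (UTR), had 12 interacting and 24 de-crosslinked event ends, or 14.0 per kb (7.25 to 24.5) and 28.1 per kb (18.0 to 41.8) in those libraries. The first exon, 248 bp of 5′ UTR, had 0 event ends in the interacting library, against 8 in the de-crosslinked library. The 5′ untranslated part of the second exon, 341 bp long, had 7 interacting and 5 de-crosslinked event ends, or 20.5 per kb (8.25 to 42.3) and 14.7 per kb (4.76 to 34.2) in those libraries. The coding part inside the region had 7.85 interacting event ends per kb (3.92 to 14.0) and 11.4 de-crosslinked ones (6.52 to 18.5), and these intervals overlap those of the gap, the intron and the second exon's untranslated part. The last 800 bp of atf1, beyond the edge of the region, had 3 event ends in the interacting library, against 10 in the de-crosslinked library.

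In the gpd1 region, ends were densest in the 3′ UTR of gpd1, which lies in the cold part of the region. The gap of 3993 bp between git11, which encodes a G protein subunit of glucose signalling, and gpd1 had 32 event ends in the interacting library, against 35 in the de-crosslinked library, or 8.01 interacting and 8.77 de-crosslinked per kb. The coding part of gpd1 had 5 interacting and 11 de-crosslinked event ends, or 4.32 and 9.50 per kb in those libraries. The 3′ UTR, only 371 bp long, had 13 event ends in the interacting library, against 12 in the de-crosslinked library, which is 35.0 per kb (18.7 to 59.9) interacting and 32.3 per kb (16.7 to 56.5) de-crosslinked. These few ends were joined by many pairs, 64 pair ends in the interacting library, against 69 in the de-crosslinked library. The hot run alone, without the rest of gpd1, had 8.75 per kb in the interacting library, against 10.8 per kb in the de-crosslinked library.

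Summed over both libraries, the densest 300 bp of each region contained a run of simple sequence. In the atf1 region it was 1544784 to 1545083, in the gap upstream of atf1, with 8 event ends in the interacting library, against 16 in the de-crosslinked library. In the gpd1 region it was 4036954 to 4037253, at the 3′ end of gpd1, with 13 interacting and 12 de-crosslinked event ends. Away from this place, the densest 300 bp was 4031224 to 4031523, in git11 behind its coding part, with 8 event ends in the interacting library, against 14 in the de-crosslinked library. The runs in these 3 places are the only runs in the regions of at least 15 A or T or of at least 12 bp of alternating TG. They are shown on the plus strand, 30 bases each, with the run in capitals as far as it is shown. The A run lies at II:1545023-1545052, the T run at II:4031451-4031480 and the TG run at II:4037188-4037217.
A run upstream of atf1: ttaacAAAAAAAAAAAAAAAAAAAgagaga
T run in git11: cttaaatataTTTTTTTTTTTTTTTTTTTT
TG run in gpd1: tctatttgtaTGTGTGTGTGTGTGTGTGTG

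Counting each event end with any pair within 50 bp of the run, the 19 bp A run had 6 event ends in the interacting library, against 11 in the de-crosslinked library, or 50.4 interacting and 92.4 de-crosslinked per kb. The 25 bp T run had 8 interacting and 12 de-crosslinked event ends, or 64.0 and 96.0 per kb in those libraries. The 38 bp TG run had 12 interacting and 10 de-crosslinked event ends, or 87.0 and 72.5 per kb in those libraries. The genome mean is 5.65 interacting and 8.91 de-crosslinked event ends per kb. At the T run all 8 events of the interacting library and 11 of the 12 events of the de-crosslinked library were single pairs. At the TG run the 12 event ends of the interacting library carried 63 pair ends, and the 10 of the de-crosslinked library carried 65.

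Ends were also dense at such runs across the genome. For this each event end was placed once, at the median position of its pairs, which puts 11 de-crosslinked event ends at the T run and 11 interacting ones at the TG run. The 344 runs of at least 15 A or T, with 50 bp on each side, make up 0.327% of the genome and held 4.22% of all event ends in the interacting library (4.07 to 4.37) and 2.98% in the de-crosslinked library (2.88 to 3.08). That is 12.9 times their share of the DNA for interacting and 9.13 times for de-crosslinked ends. The 26 TG runs make up 0.0227% of the genome and held 0.224% of the interacting and 0.202% of the de-crosslinked event ends. Of the 451 hot regions, 138 contain such a run, and in 83 of these, or 60.1%, the densest 300 bp of both libraries together touches it. With the runs and their surroundings left out, the atf1 region had 8.26 event ends per kb in the interacting library, against 15.8 in the de-crosslinked library. These are 1.52 and 1.83 times the mean of the genome treated likewise in those libraries. The gpd1 region then had 6.40 interacting (4.58 to 8.72) and 8.81 de-crosslinked event ends per kb (6.63 to 11.5), and both intervals include the means of the genome treated likewise, 5.42 interacting and 8.66 de-crosslinked. Runs were looked for after the densest stretches had been seen, and why ends gathered there was not tested.

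The TG run in the 3′ UTR of gpd1 is the longest of its kind in the genome, at 4037198 to 4037235, and it was often joined to other TG runs. Partners within 200 bp of another such run made up 9 of the 13 event ends that lay within 200 bp of it in the interacting library, against 6 of the 12 in the de-crosslinked library. Events joining 2 TG runs were 9 of 57 events of the gpd1 region, or 15.8%, in the interacting library, against 6 of 76, or 7.89%, in the de-crosslinked library. They held 41.4% of the region's pairs in the interacting library, against 35.5% in the de-crosslinked library. In all events of the series the shares were 0.0871% interacting and 0.0528% de-crosslinked. The partners that recurred are shown in the direction in which they read TG, with the run in capitals. Of these runs, only that in fhn1, which encodes a membrane protein, lies inside a protein-coding gene. The others lie between peg1 and the pyruvate decarboxylase gene pdc201, between cup1 and the enolase gene eno101, and between SPAC30C2.08 and por1. The last lies between SPCC569.01C and the end of chromosome III.
between peg1 and pdc201, I:3159195-3159224, minus strand: atgaatgtgcGTGTGTGTGTGTGTGTGTGT
between cup1 and eno101, II:2198953-2198982, minus strand: gcatggtgtgGTGTGTGTGTGTGTGTGTGT
in fhn1, II:528042-528071, plus strand: tctcagtgtaTGTGTGTGTGTGTGTGTGTG
between SPAC30C2.08 and por1, I:4648114-4648143, plus strand: ttaatatgtaTGTGTGTGTGTGTGTGTGTG
beyond SPCC569.01C, III:2447996-2448025, minus strand: aatggttagcGTGTGTGTGTGTGTGTGTGg

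The run beside pdc201, 27 bp long, had 32 pairs with gpd1 in the interacting library, against 36 in the de-crosslinked library. The run beside eno101, also 27 bp, had 13 interacting and 8 de-crosslinked pairs. The run of 21 bp in fhn1 had 5 interacting and 8 de-crosslinked pairs. That of 23 bp beside por1 had 2 pairs in each library, and that of 19 bp beyond SPCC569.01C had 1 interacting and 5 de-crosslinked pairs. Each of these 5 joins was therefore present in both libraries. Among all other events of the gpd1 region, 48 interacting and 70 de-crosslinked, 0 had a counterpart with both ends within 500 bp in the other library. For the atf1 region that number was likewise 0, of 53 interacting and 97 de-crosslinked events. Over the series, 53.3% of the interacting and 55.2% of the de-crosslinked events between 2 TG runs recurred, whereas 1.97% of other interacting and 1.24% of other de-crosslinked events did.

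Ends at the gpd1 run gathered at single bases. The base just before the run, 4037197, was an end of 15 pairs in the interacting library, against 28 in the de-crosslinked library, and the base 10 bp after it, 4037245, of 16 interacting and 11 de-crosslinked pairs. Without the joins between TG runs, the 3′ UTR of gpd1 had 4 event ends in the interacting library, against 6 in the de-crosslinked library, and the whole region had 7.84 interacting and 10.8 de-crosslinked event ends per kb. The joins held 58 pairs in the interacting library, against 60 in the de-crosslinked library, and how they arose was not tested.

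**Figure D2:**
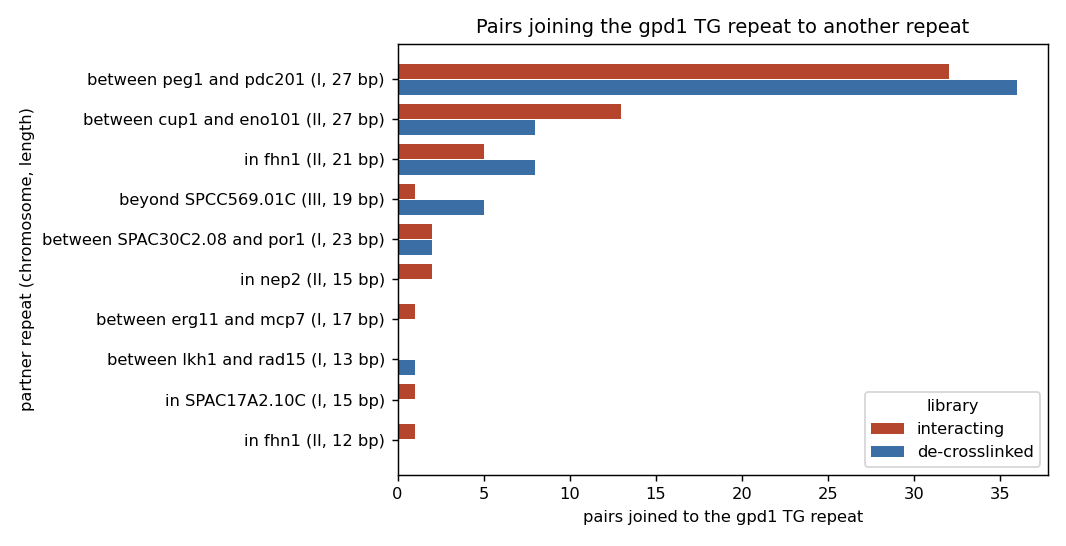
Pairs joining the TG run in the gpd1 3′ UTR to each other TG run, in the interacting (red) and de-crosslinked (blue) libraries, with the partner's chromosome and length. The 5 partners at the top were found in both libraries, led by the run beside pdc201 with 32 interacting and 36 de-crosslinked pairs; the rest had 1 or 2 pairs in 1 library.

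The comparison of the 2 libraries asks which joins depend on crosslinking, and it was made on partners at least 5 kb away or on another chromosome. The atf1 region was joined more often to its own neighbourhood in the interacting library. There 9 of 53 partners, or 17.0% (8.07 to 29.8), lay 5 to 200 kb away, against 3 of 97, or 3.09% (0.642 to 8.77), in the de-crosslinked library. The difference was 13.9 percentage points (Fisher's exact test, two-sided, adjusted p = 0.0182 over 451 regions). Calls were common in this comparison, with 30.8% of hot regions past the test, and the median region had 12.5% in the interacting library, against 2.86% in the de-crosslinked library. Without any event that had an end within 50 bp of a run of A or T, the shares were 19.1% interacting and 3.66% de-crosslinked (exact test, adjusted p = 0.0311). With pairs at least 20 kb apart the call was lost (exact test, adjusted p = 0.0909).

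For the gpd1 region, 6 of 57 partners, or 10.5% (3.96 to 21.5), were near in the interacting library, against 4 of 76, or 5.26% (1.45 to 12.9), in the de-crosslinked library. This difference of 5.26 points did not pass the test (Fisher's exact test, two-sided, adjusted p = 0.433). Without the joins between TG runs the near shares were 12.5% interacting and 5.71% de-crosslinked (exact test, adjusted p = 0.422). Counting every pair made it pass (exact test, adjusted p = 0.0167), where 12 of the pairs are copies of 1 event at sec13. In the interacting library the near shares of the atf1 and gpd1 regions differed by 6.45 points (two-sided Fisher's exact test, p = 0.408), so that no difference between them was detectable at this depth. Neither differed detectably from the other hot regions, which had 12.99% of partners near beside atf1 and 13.01% beside gpd1 (exact tests, adjusted p = 0.922 for atf1 and 1.0 for gpd1, in a comparison that called 1.55% of regions).

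**Figure D3:**
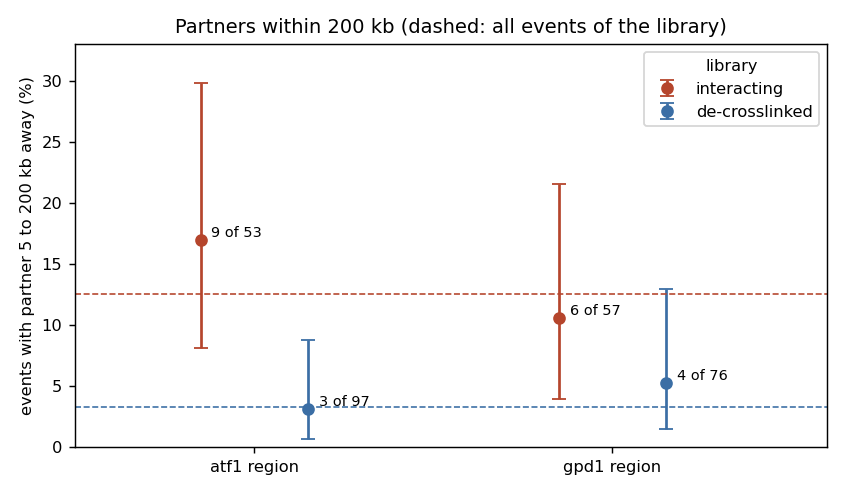
Percent of events of the atf1 and gpd1 regions with the partner 5 to 200 kb away, in the interacting (red) and de-crosslinked (blue) libraries; bars are exact 95% Clopper-Pearson intervals, labels give the counts, and dashed lines are the shares over all events, 12.5% interacting and 3.24% de-crosslinked. The atf1 shares, 9 of 53 interacting and 3 of 97 de-crosslinked, lie farther apart than the gpd1 shares, 6 of 57 interacting and 4 of 76 de-crosslinked, whose intervals overlap over most of their length.

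The near joins of atf1 in the interacting library were mostly 20 to 50 kb long. That class held 6 of the 53 events, or 11.3% (4.27 to 23.03), although 0.431% of all event ends lie at that distance from the region, and in the de-crosslinked library it held 0 of 97. An excess of near joins was not particular to atf1. With pairs at least 20 kb apart, 15.4% of its interacting partners lay within 200 kb, against 9.16% in other hot regions (exact test, adjusted p = 0.970). Of the 6 events of 20 to 50 kb, 3 led to 1 hot region, 1570513 to 1576232, around sua1, which encodes the sulfate adenylyltransferase that starts sulfate assimilation. Their gene-side ends lay in fic1, between fic1 and atf1, and in atf1, at distances of 27.9, 27.6 and 24.6 kb, with 6, 1 and 2 pairs. The de-crosslinked library had 0 events between the 2 regions. The other 3 of this class led to ivn1, 49.6 kb to the left with 3 pairs, to jmj3, 26.7 kb to the left with 8 pairs, and to uds1, 20.9 kb to the right with 2 pairs.

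The remaining near joins of atf1 in the interacting library reached SPBC83.12, 14.3 kb to the left and hot, the gap between SPBC8D2.16C and gmh4, 158.6 kb to the left, and cdc28, which encodes an RNA helicase of splicing, 129.8 kb to the right. Those of the de-crosslinked library led to the gap between SPBC8D2.18C and sec31 at 151.5 kb, to nep2 at 89.5 kb and to the gap between ubp11 and pat1 at 134.0 kb, with 1 pair each. All 3 were thus farther off than the 20 to 50 kb class of the interacting library.

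At gpd1, 4 of the 57 interacting events were 20 to 50 kb long, against 1 of 76 de-crosslinked events. The interacting library joined the region to the cyc3 and ste11 region by 3 events, of 49.4, 51.5 and 52.4 kb and 1 pair each, and the de-crosslinked library by 1 event of 48.1 kb. Of the 3, 1 had its end within 50 bp of the T run in git11. The others led to fes1, which encodes a nucleotide exchange factor of Hsp70, at 42.8 kb, to the splicing factor gene cwf28 at 44.1 kb, and to sec13, which encodes a protein of secretory vesicle coats, at 26.4 kb with 12 pairs. Only the last pointed to the right. In the de-crosslinked library the others lay at 13.2, 128.5 and 187.5 kb.

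**Figure D4:**
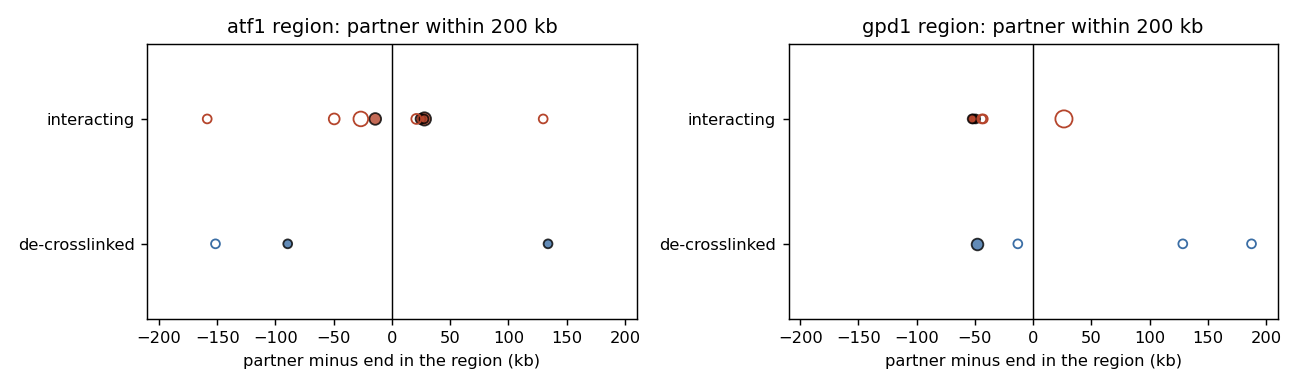
Partners 5 to 200 kb from the atf1 (left) and gpd1 (right) regions in the interacting (upper, red) and de-crosslinked (lower, blue) libraries, against partner position minus the end in the region (kb); filled circles are partners of the hot class, and larger circles have more pairs. Of the interacting partners, 7 of 9 lie within 50 kb of atf1, on both sides, and 5 of 6 lie to the left of gpd1.

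Joins to other chromosomes made up 30 of 53 events of atf1, or 56.6%, in the interacting library, against 70 of 97, or 72.2%, in the de-crosslinked library (Fisher's exact test, two-sided, adjusted p = 0.493, in a comparison that called 1.33% of regions). For gpd1 they were 33 of 57 interacting events, or 57.9%, and 46 of 76 de-crosslinked events, or 60.5% (exact test, adjusted p = 1.0). Partners of the hot class made up 41.5% of interacting and 42.3% of de-crosslinked atf1 events (exact test, adjusted p = 1.0). They made up 52.6% of the gpd1 events in the interacting library, against 40.8% in the de-crosslinked library (exact test, adjusted p = 0.957), a difference of 11.8 points. Without events at runs of A or T these shares were 47.8% interacting and 44.4% de-crosslinked, a difference of 3.38 points, and with the region widened by 1 kb on each side the difference was 6.82 points. This comparison called 0.0% of regions by two-sided Fisher's exact tests after adjustment, and 5.76% at an unadjusted p under 0.05. The atf1 and gpd1 regions, 2482 kb apart, were never joined to each other, in 0 of 53 interacting and 0 of 97 de-crosslinked atf1 events, which, taking 3 counts as the limit that a count of 0 allows, leaves room for a share of up to 5.66% in the interacting library, against 3.09% in the de-crosslinked library. At the gpd1 region's share of all ends 0.0448 interacting and 0.0658 de-crosslinked events would have fallen there, so the depth cannot show joining at that rate.

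Few hot regions were partners more than once. Besides the sua1 region, atf1 was joined by 2 interacting events and 1 de-crosslinked event to the region of csx1 and rrp1 on chromosome I, which gpd1 also reached with 2 interacting and 0 de-crosslinked events. Of these 2 gpd1 events, 1 was a join between 2 TG runs. The region of mug115 and esc1, also on chromosome I, was joined to atf1 by 1 interacting and 2 de-crosslinked events and to gpd1 by 2 interacting and 0 de-crosslinked events. Of the latter 2, 1 had its gpd1-side end at the T run in git11. The mug115 and esc1 region held 0.555% of all interacting and 0.752% of all de-crosslinked event ends. The region of pcs2 and hsr1 and that of ayr1 and pho842 were each joined to atf1 by 1 interacting and 2 de-crosslinked events. The regions of ste7 and of ymc1 were each joined to it by 0 interacting and 2 de-crosslinked events. The region of peg1 and pdc201 was joined to gpd1 by 2 interacting events and 1 de-crosslinked event. In each library 1 of them was a join between 2 TG runs. The other interacting event had its gpd1-side end at the T run in git11. The region of SPBC1685.17 and fhn1 was joined to gpd1 by 2 interacting and 0 de-crosslinked events, of which 1 was a join between 2 TG runs. All these counts are too small for a test.

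The wider stress pathway was taken as 3 lists of genes, each gene with 500 bp on each side. No gene of any list passed the test between the libraries, where 5 of 5090 genes tested did (Fisher's exact test, two-sided, adjusted p under 0.05) and 5.82% had an unadjusted p under 0.05. The 19 genes of the Sty1 pathway had a median of 5.49 event ends per kb in the interacting library, against 8.43 in the de-crosslinked library. Over all protein-coding genes the medians were 4.94 interacting and 7.42 de-crosslinked. Of these 19, 9 overlapped a hot region, atf1 among them, or 47.4%, against 28.3% of all protein-coding genes. This list was chosen with earlier results of these data known, so the overlap is not a finding. The kinase gene sty1 itself had 35 event ends in the interacting library, against 46 in the de-crosslinked library, or 13.2 interacting and 17.3 de-crosslinked per kb. The atf1 gene had 8.39 interacting and 17.2 de-crosslinked event ends per kb. For pcr1, which encodes the partner of Atf1, the densities were 7.73 interacting and 8.13 de-crosslinked. The kinase kinase kinase gene wis4 had 38 interacting and 35 de-crosslinked event ends and a ratio of 1.71 (two-sided Fisher's exact test, unadjusted p = 0.0224, adjusted p = 0.693).

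The 14 known targets of Atf1 had medians of 6.65 event ends per kb in the interacting library, against 9.50 in the de-crosslinked library. Of them, 11 overlapped a hot region, or 78.6%, against 28.3% of all protein-coding genes. The 11 include atf1 and gpd1 themselves, and the lists were chosen with earlier results of these data known, so this overlap is not a finding. The highest was ste11, which encodes the master regulator of sexual differentiation, with 27.5 interacting and 43.0 de-crosslinked event ends per kb. The small heat shock gene hsp16 had 20 event ends in the interacting library, against 53 in the de-crosslinked library, or 10.8 interacting and 28.6 de-crosslinked per kb, a ratio of 0.595 that did not pass the test (Fisher's exact test, two-sided, adjusted p = 0.841). The glutathione peroxidase gene gpx1 had 12 interacting and 6 de-crosslinked event ends, a ratio of 3.15 that did not pass either (exact test, adjusted p = 0.727). The catalase gene ctt1 had 4.09 interacting event ends per kb, below the median of 4.94 over all protein-coding genes. Its 7.55 de-crosslinked event ends per kb were near the median of 7.42.

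Of the 6 glycerol genes, 5 overlapped a hot region, gpd1 among them, or 83.3%, against 28.3% of all protein-coding genes. This list too was chosen with earlier results of these data known, so the overlap is not a finding. The medians of the 6 were 7.21 event ends per kb in the interacting library, against 10.4 in the de-crosslinked library. The glycerol dehydrogenase gene gld1 was the highest, with 61 event ends in the interacting library, against 87 in the de-crosslinked library, or 20.8 interacting and 29.7 de-crosslinked per kb. The gpd1 gene had 8.64 interacting and 12.6 de-crosslinked event ends per kb. There were 3.34 interacting and 5.93 de-crosslinked per kb at gpd2, which encodes the other glycerol-3-phosphate dehydrogenase and is the member outside the hot regions.

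**Figure D5:**
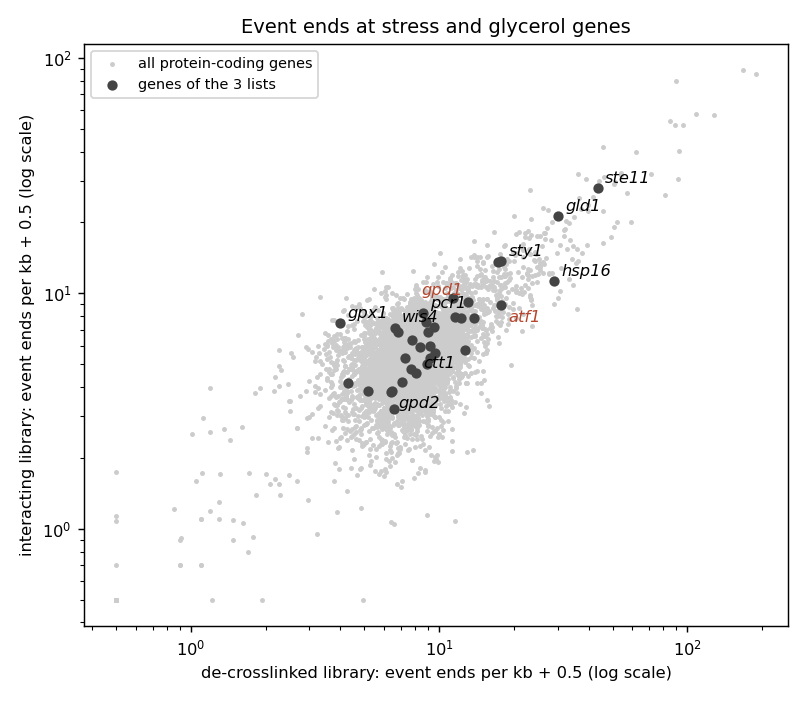
Event ends per kb plus 0.5 over each gene with 500 bp on each side, on log axes, in the interacting (vertical) against the de-crosslinked (horizontal) library; grey points are all protein-coding genes and dark points the genes of the 3 lists, with atf1 and gpd1 named in red. The list genes lie within the cloud of all genes, from 2.72 per kb at cmk2 to 27.5 per kb at ste11 in the interacting library.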

How the data were processed

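The deposited tables hold no counts per gene. Each line is a ligated pair, with chromosome, position and the authors' hot or cold class of each end. Per the submitters' processing notes CASAVA 1.8.0 was used. The aligner, genome build and hot rule are not given in the sources used here. Positions were compared with RefSeq's ASM294v3: its 301 stretches of at least 200 bp with no unique 50 bp word held 0 ends, against 981 and 1027 after shifts of -100 and 100 bp.

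Events were pairs linked within 500 bp at both ends, which lessens copies made by amplification before fragmentation (2.87 pairs per event in the interacting library, against 2.20 in the de-crosslinked library). Event ends are distinct event sides with any pair end in a window; for shares of the genome at runs and densities away from runs, each was placed once, at its median position. Hot regions are runs of hot ends over both tables. Libraries were compared by two-sided Fisher's exact tests with Benjamini-Hochberg adjustment over all regions or genes. Shares have Clopper-Pearson and counts Poisson intervals. Tools were python 3.11.15, numpy 2.4.6, scipy 1.17.1, pandas 2.3.3 and matplotlib 3.10.9, and the linking and tests were tested on simulated data.

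The members and lists were chosen with earlier results of these data known, and the TG, A and T runs after their places were seen. Named genes overlap the regions or 1 kb beside them, belong to a list, lie nearest a near partner of the interacting library, or lie in a region joined by 2 or more events. The recurring TG partners were named after their values were seen. Alternatives were other linking distances, every pair counted, wider windows, other distance limits, genes without flanks, no joins between TG runs, and no events at runs of A or T.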

Additional observations from a re-analysis of the deposited data

How the results depend on the processing

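Of 92 values recomputed for 13 results under other settings, 86 kept their direction and their side of the threshold. With every pair counted, the near share of the gpd1 region differed by 8.001 points, 12.1% in the interacting library, against 4.14% in the de-crosslinked library (exact test, adjusted p = 0.0167); copies of 1 event then count as separate pairs. With pairs at least 20 kb apart, the near share of atf1 differed by 12.3 points, 15.4% interacting against 3.09% de-crosslinked, and its call was lost (Fisher's exact test, two-sided, adjusted p = 0.0909, against 2.72e-08 to 0.0909 over all its alternatives); 1 event at SPBC83.12 was left out by this setting. At that distance, the near share of gpd1 stood 1.35 points above that of other hot regions. The ratio of event ends at the gpd1 gene was 0.973 with every pair counted and 0.816 without joins between TG runs. Without events at runs of A or T, the share of hot partners of atf1 was 3.22 points higher, at 44.7% interacting and 41.5% de-crosslinked. This setting and that without TG joins were chosen after seeing the data. No paired analysis was possible because each group has 1 library. With 53 to 97 partnered events per region, the intervals of near shares span more than the differences between atf1, gpd1 and other hot regions, and no library of untagged or input DNA was analysed with which to set a level of background.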

Other observations

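Among the hot regions beside the 2 loci, those of isp4 and ste11 were denser than the loci in both libraries. To the right of atf1, the region of isp4, which encodes an oligopeptide transporter, had 112 event ends in the interacting library, against 132 in the de-crosslinked library, or 17.8 interacting and 21.0 de-crosslinked per kb. It ranked 26 and 67 of 451 in those libraries. To the left, the region of pet2, SPBC83.12 and yhm2 had 6.94 interacting and 11.3 de-crosslinked event ends per kb. Beside gpd1, the cyc3 and ste11 region on the left had 35.1 per kb in the interacting library, against 75.8 in the de-crosslinked library, and the region of erg10 and odr1 on the right had 5.70 interacting and 5.11 de-crosslinked event ends per kb.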
